A study of Mus musculus with 6 samples.

Results

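The kinases and scaffolds of the mitogen-activated protein kinase (MAPK) cascades were examined on whole-genome arrays of skeletal muscle from 3 Rpt3-/- mice and 3 Rpt3+/+ mice. The set was a list of 46 genes of the ERK, p38 and JNK cascades, matched by symbol to array probes. Of these, 42 had a named probe and 37 were tested, among 18563 named and 14730 tested genes. Testing required a probe whose signal exceeded the background on 3 or more of the 6 arrays, with at least 2 values left in each group.

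The mice were females at 6 weeks of age. Labels give both groups the strain mlc1f-Cre/Rpt3-floxed and name the groups Rpt3 null and control. In the study the controls were Mlc1f-Cre/Rpt3+/+, so that all mice carried the Cre transgene and the Rpt3-/- mice were homozygous for the floxed allele. Rpt3, also known as Psmc4, encodes an ATPase of the 19S regulatory particle of the proteasome. In adults the Mlc1f promoter is active in fast-twitch fibers. The study proposes that slow-twitch fibers may have kept Rpt3, and that these and cells other than muscle may account for the remaining protein. It could not show this by staining, and it reports that Rpt3 protein was also much lower in the soleus, a muscle rich in slow-twitch fibers. The sample labels name the tibialis anterior, whereas the study's text names the gastrocnemius for the array RNA. Both are muscles in which fast-twitch fibers predominate. Each array carried the RNA of 1 sample on a slide of its own.

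A MAPK cascade is a relay of protein kinases in which a MAP kinase kinase kinase (MAP3K) phosphorylates a MAP kinase kinase (MAP2K), which in turn activates a MAPK. The ERK branch mainly carries growth factor signals that enter through RAS, and the p38 and JNK branches respond to stress and cytokines. In skeletal muscle p38 is known for its part in myoblast differentiation and in metabolic and atrophy programs. These kinases are controlled largely by phosphorylation, which an array does not measure, so that every value below is a level of mRNA. By immunoblot the study found more phosphorylated p38 in the gastrocnemius of Rpt3-/- mice. Its pathway analysis of the array data, from genes chosen by fold change, also listed the MAPK pathway as upregulated. The mRNA levels below do not measure the activity of p38.

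All levels are log2 intensities after background correction and quantile normalization, and a log2 fold change is the Rpt3-/- mean minus the Rpt3+/+ mean. Genes with an adjusted p under 0.05 from limma, a linear model fitted over all 14730 tested genes with Benjamini-Hochberg adjustment, were called higher or lower in Rpt3-/- mice. Probes differ in brightness, and levels were therefore compared within a gene and never between genes.

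The deleted gene was lower in every Rpt3-/- mouse. Psmc4 had log2 intensities of 10.01, 9.78 and 9.85 in Rpt3-/- mice and 11.16, 10.91 and 11.06 in Rpt3+/+ mice, a log2 fold change of -1.17 (SE 0.131, adjusted p = 0.000304 from limma). A second, dimmer Psmc4 probe, above background on 4 arrays, gave -0.23 and did not pass. Between 57.0% and 74.5% of 34967 transcript probes were above background, with the lowest share on Rpt3+/+ array 2 and the highest on Rpt3+/+ array 1. All 12 tested markers of fast-twitch fibers, of 13 listed, exceeded the background on 5 or 6 arrays. Their summed linear intensity ran from 208161 to 220638 in Rpt3-/- mice. It was 237849, 245162 and 226951 on Rpt3+/+ arrays 1, 2 and 3. Acta1 had no value on Rpt3+/+ array 3, so that the sum of this array lacks a bright marker and is too low for a comparison. Of these markers 3 were lower (Casq1, Myl1 and Actn3) and 1 was higher (Myh1). Markers of other cell types differed in how many were called. Over all tested genes 12.7% were higher and 6.56% were lower. Macrophage and myeloid markers were higher for 14 of 20 tested genes, with summed intensities of 10375 to 15203 against 4441 to 5089, and slow fiber markers for 6 of 8, with 22564 to 23510 against 14486 to 17840. Fibroblast markers were higher for 5 of 12 genes, adipocyte markers for 2 of 5, and satellite cell and myoblast markers for 1 of 7, which was Myog. T and B cell markers were lower for 2 of 8 genes, and endothelial and mural markers for 1 of 11. Of 6 nerve markers limma called 0, with 0 at an unadjusted p under 0.05. The part of these cells in the differences below was not tested, and in bulk RNA fewer cells of a type and less RNA per cell cannot be told apart.

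The share of members that changed was close to that of all genes on the array. In Rpt3-/- mice 2 of 37 tested members rose and 5 fell, a share of 18.9%, against 19.3% of all tested genes. The members that rose were Map2k1 and Map3k14, a share of 5.41% against 12.7% of all genes that were higher. Map3k14 reached the filter through its 3 Rpt3-/- arrays and was above background on 1 control array, and with only genes above background on all 6 arrays 1 member was higher and 6 were lower. The members that fell were Map2k6, Mapk14, Rps6ka2, Hras and Mapk12, a share of 13.5% against 6.56% of all genes that were lower. At an unadjusted p under 0.05, 3 members were higher (8.11%) and 12 lower (32.4%), against 19.2% and 12.9% of all genes. The groups did not overlap for 3 members that were higher and 10 that were lower in all Rpt3-/- mice, which is 35.1% of the members and 36.8% of all genes. The median log2 fold change was -0.13 over the members, with a range from -1.02 to 0.78, and -0.01 over all tested genes. The log2 fold change was negative for 26 of the 37 members (70.3%) and for 51.6% of all genes. Actb was itself higher in Rpt3-/- mice by 0.45 on the log2 scale after quantile normalization. Centring on Actb was instead applied to median-centred arrays, so that 0.45 is not the shift it made. The median of all genes was 0.05 after median centring and -0.72 after centring on Actb. That of the members was then -0.84, with 0 members higher and 30 lower. Among all called genes 65.9% were higher, against 80.9% after median centring and 3.08% after centring on Actb.

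**Figure D1:**
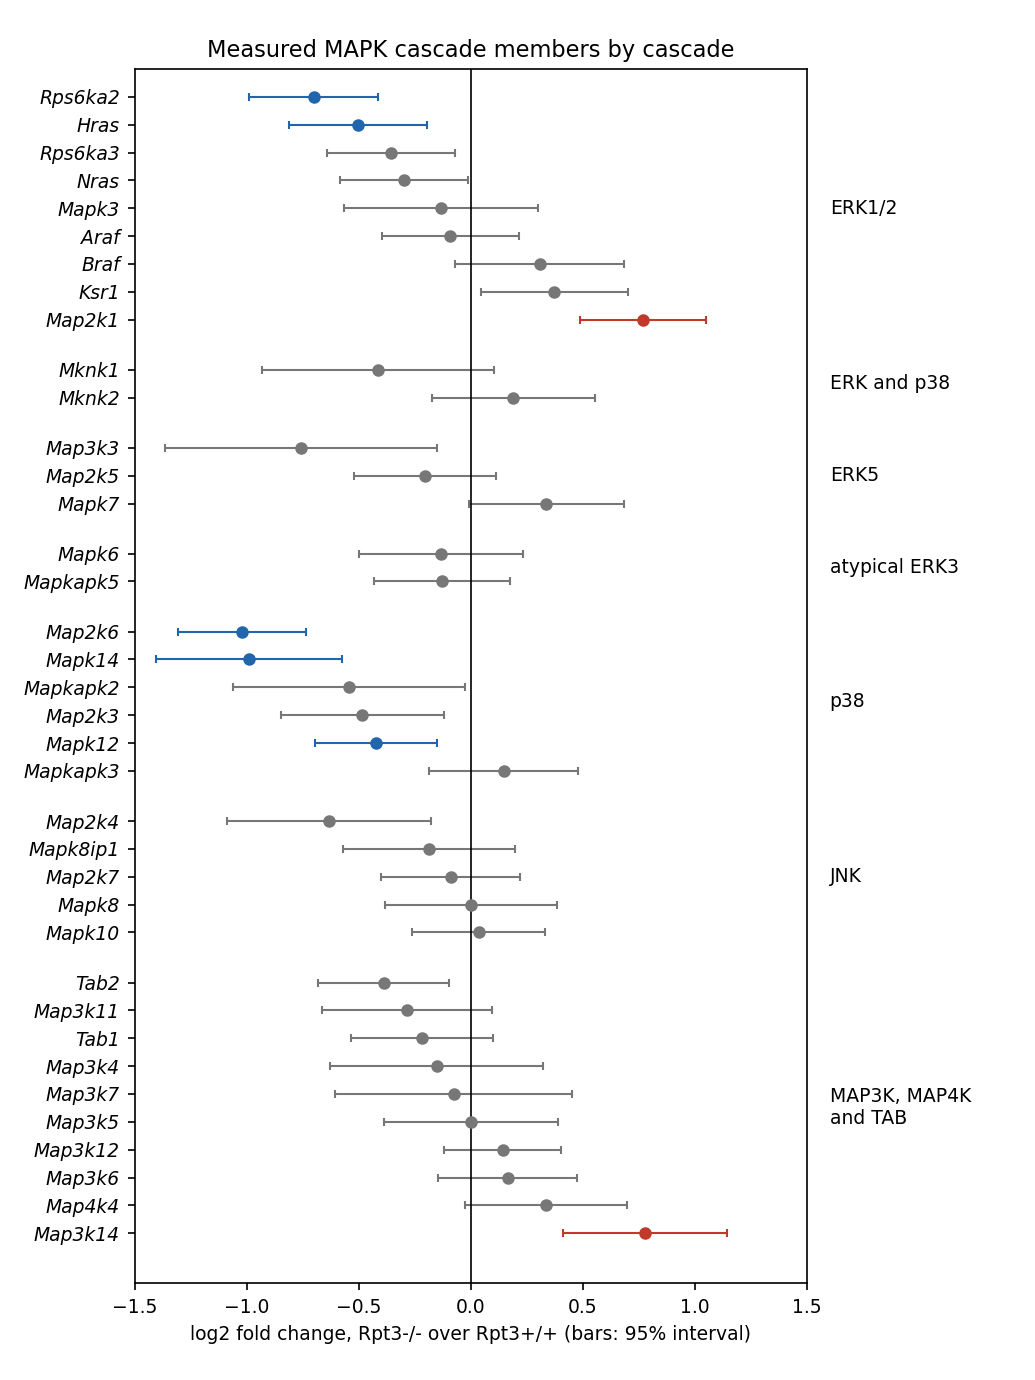
Log2 fold change (horizontal axis) of the 37 tested members, grouped by cascade, with 95% intervals from limma; red points were called higher, blue points lower and grey points were not called. In the p38 group 5 of 6 points lie to the left of 0 and 3 are blue, while the JNK group has 0 called members.

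The control arrays differed among themselves in these genes. On Rpt3+/+ array 1, 31 of the 37 members lay below the mean of the other two control arrays, with a median difference of -0.27 on the log2 scale, compared with 53.2% of all genes. On Rpt3+/+ array 2, 30 members lay above the mean of the others, with a median difference of 0.32. For 24 members array 1 was the lowest and array 2 the highest of the controls. These were also the arrays with the highest and the lowest share of probes above background. Without Rpt3+/+ array 1, 2 members were higher and 12 lower, and the 7 called members were joined by Map2k3, Map2k4, Map3k3, Mapkapk2, Mknk1, Rps6ka3 and Tab2. Without Rpt3+/+ array 2, 3 members were higher and 4 lower, with Ksr1 added and Hras lost. The log2 fold change was negative for 26 of 37 members without Rpt3+/+ array 1 and for 21 without Rpt3+/+ array 2. The background also moved, to 13.4% of all genes higher and 10.2% lower without Rpt3+/+ array 1, and to 15.8% and 9.13% without Rpt3+/+ array 2.

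**Figure D2:**
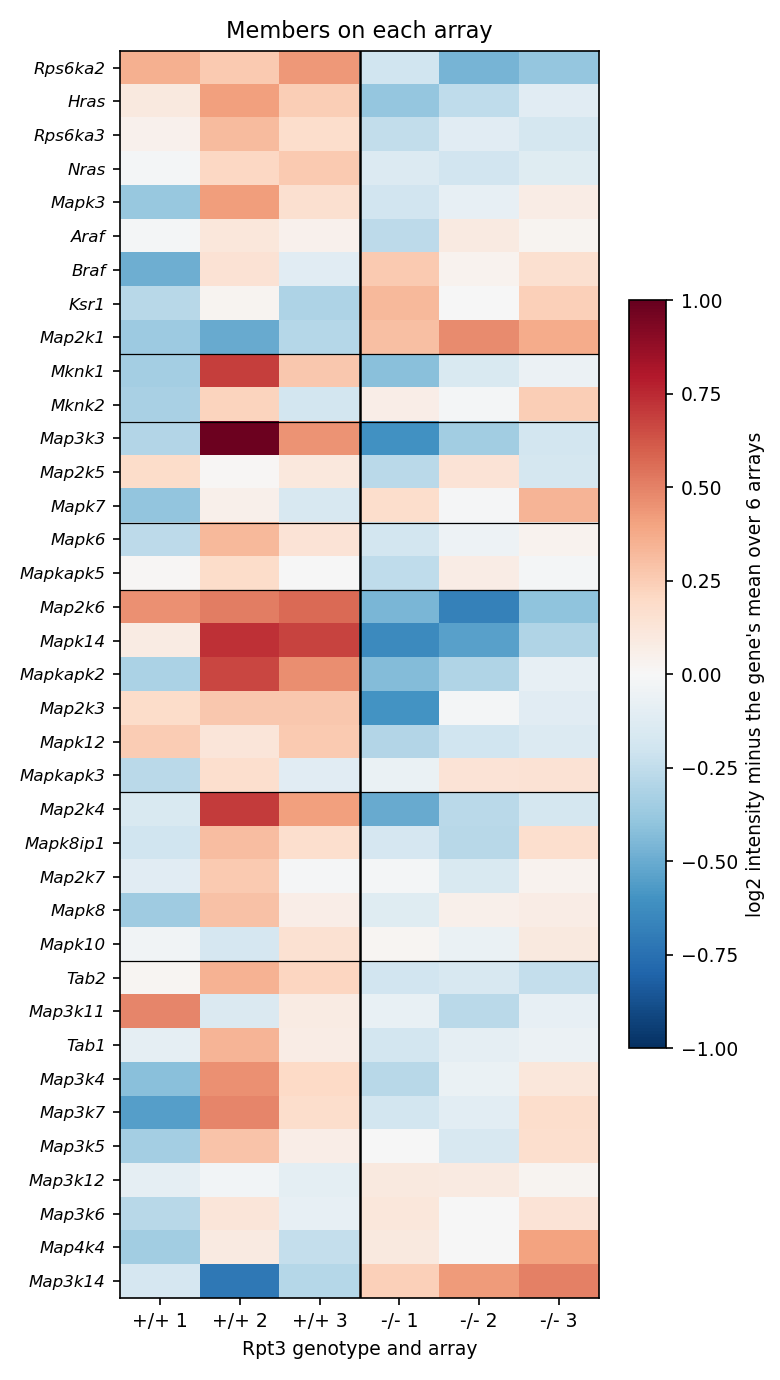
Each row is 1 of the 37 tested members, in the order of the plot by cascade, and each column 1 array; the color gives the log2 intensity minus that gene's mean over the 6 arrays, from blue (lower) to red (higher), and lines divide the cascades and the genotypes. Rpt3+/+ array 1 was the lowest of the 3 controls for 27 members, and the p38 rows from Map2k6 to Mapk12 are mostly red on the control side and blue on the Rpt3-/- side.

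The p38 cascade held 3 of the 5 members that fell. Of 6 tested genes 3 were lower and 0 higher, and the median log2 fold change was -0.51. At an unadjusted p under 0.05, 5 were lower and 0 higher, and for 4 all Rpt3-/- values lay below the controls. Over all tested genes 6.56% were called lower, 12.9% were lower at an unadjusted p under 0.05 and 15.6% lay below the controls without overlap. Without Rpt3+/+ array 1, 5 of the 6 were lower, and the median was -0.69. Without Rpt3+/+ array 2, 3 were lower, and the median was -0.47. The called genes were a MAP2K and both measured p38 kinases. The regions at the starts of these 3 genes are shown because the genes fell together. They are RefSeq sequences on GRCm38.p6, span 300 bases from upstream of the start into the transcript, and are written 5′ to 3′ on the strand of the gene. Capitals mark the GC box, GGGCGG on either strand.

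Mapk14, chr17:28691092-28691391, plus strand: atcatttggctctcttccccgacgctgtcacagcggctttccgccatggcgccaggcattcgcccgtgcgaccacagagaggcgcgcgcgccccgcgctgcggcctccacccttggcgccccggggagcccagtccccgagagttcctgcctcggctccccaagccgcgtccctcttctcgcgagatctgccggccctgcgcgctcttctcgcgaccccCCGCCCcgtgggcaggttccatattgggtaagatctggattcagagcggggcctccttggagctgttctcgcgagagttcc
Mapk12, chr15:89140654-89140953, minus strand: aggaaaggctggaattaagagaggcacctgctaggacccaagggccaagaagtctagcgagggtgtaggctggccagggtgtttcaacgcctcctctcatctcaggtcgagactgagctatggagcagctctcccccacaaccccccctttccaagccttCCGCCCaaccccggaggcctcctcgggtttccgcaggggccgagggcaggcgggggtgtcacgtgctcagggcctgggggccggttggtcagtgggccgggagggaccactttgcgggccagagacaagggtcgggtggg
Map2k6, chr11:110398852-110399151, plus strand: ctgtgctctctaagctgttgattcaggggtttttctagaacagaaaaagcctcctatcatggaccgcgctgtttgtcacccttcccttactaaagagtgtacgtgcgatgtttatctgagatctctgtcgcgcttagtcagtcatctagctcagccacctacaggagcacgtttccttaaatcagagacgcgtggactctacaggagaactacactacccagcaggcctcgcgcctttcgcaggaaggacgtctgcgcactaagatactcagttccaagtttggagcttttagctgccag

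The Mapk14 and Mapk12 sequences each held 1 GC box and the Map2k6 sequence 0. The share of G and C was 68.7% for Mapk14, 65.3% for Mapk12 and 50% for Map2k6. A GC box was held by 35.7% of all 32851 such RefSeq sequences and by 61.8% of the 55 entries for 39 members, and the median share of G and C was 52.7% over all sequences and 63.7% over the members' entries. RefSeq gives 2 starts for Mapk14 and 3 for Map2k6, of which the first is shown. A match is only a run of letters in this window.

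The largest difference among all tested members was that of Map2k6, which encodes MKK6, a MAP2K that activates p38. Its log2 intensities were 7.64, 7.43 and 7.70 in Rpt3-/- mice and 8.55, 8.61 and 8.66 in Rpt3+/+ mice. All 3 Rpt3-/- values lay below all controls, and the control values lay close together. Map2k6 had a fold change of -1.02 on the log2 scale (SE 0.128, adjusted p = 0.00055 from limma), a 2.03-fold lower level. It passed under all 19 alternatives in processing with an adjusted p. Map2k3 encodes MKK3, another MAP2K that activates p38. It also lay lower on every Rpt3-/- array, at 9.95, 10.53 and 10.43 against 10.73, 10.82 and 10.82, but did not pass (log2 fold change -0.48, 95% interval -0.85 to -0.12, adjusted p = 0.0643 from limma).

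Mapk14 encodes p38α, the p38 kinase found in most tissues. It measured 8.27, 8.37 and 8.60 in Rpt3-/- mice against 8.99, 9.64 and 9.58 in Rpt3+/+ mice. The groups did not overlap, and Rpt3+/+ array 1 was the nearest control to the Rpt3-/- values. Mapk14 fell by 0.99 on the log2 scale, or 1.98-fold (SE 0.186, adjusted p = 0.00485 from limma). Without that array the log2 fold change was -1.22, and without Rpt3+/+ array 2 it was -0.87. A second probe for Mapk14 was above background on 2 arrays only and was not used. Its values, near the background, were 6.62, 6.54 and 6.47 in Rpt3-/- mice against 6.32, 6.07 and 6.53, and so not lower in Rpt3-/- mice. Mapk12 encodes p38γ, a p38 kinase abundant in skeletal muscle. It measured 10.18, 10.27 and 10.33 in Rpt3-/- mice against 10.72, 10.59 and 10.73, again without overlap. The difference was smaller, a log2 fold change of -0.42 (SE 0.123, adjusted p = 0.0362 from limma), and it lost the call when any 1 of the Rpt3-/- arrays or Rpt3+/+ array 3 was left out, with adjusted p-values from limma between 0.0772 and 0.157. Median centring moved it to -0.16 (adjusted p = 0.491 from limma). Mapk11 and Mapk13, which encode p38β and p38δ, were above background on 0 arrays and were not tested.

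Downstream of p38, Mapkapk2 and Mapkapk3 encode the related kinases MK2 and MK3. Mapkapk2 measured 8.17, 8.31 and 8.52 in Rpt3-/- mice and 8.29, 9.28 and 9.07 in Rpt3+/+ mice. Rpt3+/+ array 1 lay among the Rpt3-/- values and the other two controls above them. Mapkapk2 stood at -0.54 (adjusted p = 0.136 from limma) over all arrays and -0.85 (adjusted p = 0.000874 from limma) without Rpt3+/+ array 1. Without Rpt3+/+ array 2 it was -0.35 (adjusted p = 0.254 from limma), and a second probe gave -0.25 over all arrays. Mapkapk3 was the only tested p38 gene with a positive value, 0.15 (95% interval -0.19 to 0.48, adjusted p = 0.554 from limma).

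**Figure D3:**
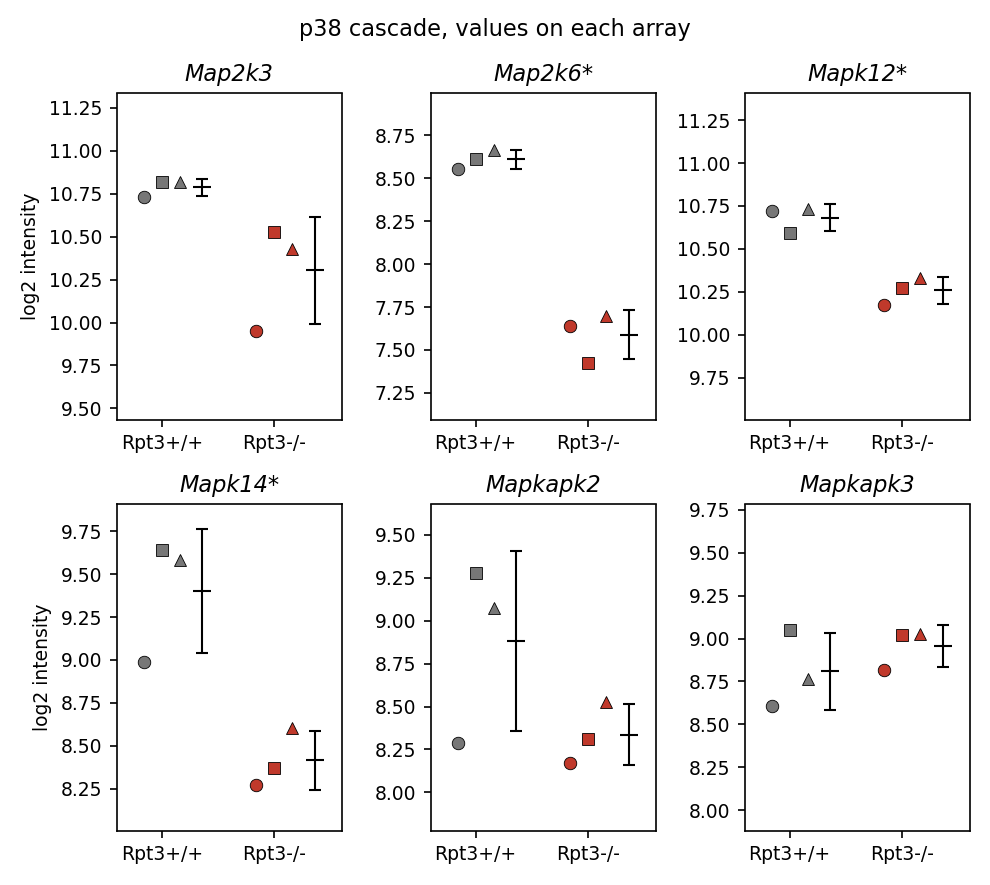
Log2 intensity (vertical axis) on each array for the 6 tested genes of the p38 cascade; grey marks are Rpt3+/+ and red marks Rpt3-/- mice, circle, square and triangle are arrays 1, 2 and 3 of a group, bars are the mean ± SD (n = 3), and an asterisk marks an adjusted p under 0.05 from limma. Every panel spans the same range of log2 units. Map2k6, Mapk12, Mapk14 and Map2k3 have no overlap between the groups, and the circle of Rpt3+/+ array 1 lies low for Mapk14 and Mapkapk2.

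In the ERK1/2 cascade 1 of 9 tested genes was higher and 2 were lower, against 12.7% and 6.56% of all tested genes. The median log2 fold change was -0.13. Map2k1, which encodes the MAP2K MEK1, was the member that rose. Its values were 10.18, 10.35 and 10.25 in Rpt3-/- mice and 9.51, 9.37 and 9.59 in Rpt3+/+ mice. Every Rpt3-/- value lay well above the highest control. Map2k1 rose by 0.77 on the log2 scale (SE 0.126, adjusted p = 0.00237 from limma), a 1.70-fold higher level. It passed under 18 of 19 alternatives. The exception was centring on Actb, with 0.22 (adjusted p = 0.39 from limma). Map2k2, which encodes MEK2, had no probe of its own, since 1 probe carries the names of both genes and was left unnamed.

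Upstream of MEK1, the small GTPase gene Hras was lower. It measured 9.23, 9.37 and 9.50 in Rpt3-/- mice and 9.71, 10.03 and 9.86 in Rpt3+/+ mice. The highest Rpt3-/- value lay below the lowest control. Hras fell by 0.50 on the log2 scale (SE 0.138, adjusted p = 0.0291 from limma), and lost the call when any 1 of the Rpt3-/- arrays, Rpt3+/+ array 2 or Rpt3+/+ array 3 was left out, with adjusted p-values from limma between 0.052 and 0.12. Median centring gave -0.30 (adjusted p = 0.183 from limma). Nras, another RAS gene, did not overlap between the groups either and stood at -0.30 (adjusted p = 0.14 from limma). The RAF kinases, which RAS recruits to the membrane, were not called. Braf had a log2 fold change of 0.31 (95% interval -0.07 to 0.68) and Araf of -0.09 (95% interval -0.40 to 0.21). Ksr1, a scaffold that brings RAF, MEK and ERK together, stood at 0.37 (adjusted p = 0.112 from limma) on the brighter of its probes and at -0.04 on the other. The brighter probe gave 0.49 (adjusted p = 0.0357 from limma) without Rpt3+/+ array 2.

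Mapk3 encodes ERK1 and measured 7.85, 7.97 and 8.12 in Rpt3-/- mice against 7.67, 8.47 and 8.21 in Rpt3+/+ mice. The Rpt3-/- values lay within the range of the controls. Mapk3 stood at -0.13 with a 95% interval of -0.57 to 0.30 (adjusted p = 0.689 from limma), so that differences within it were not detectable with these arrays. Among the RSK kinases, which ERK activates, Rps6ka2 (RSK3) was lower. It measured 9.56, 9.30 and 9.38 in Rpt3-/- mice and 10.12, 10.02 and 10.19 in Rpt3+/+ mice. The groups were separate, and the 3 controls lay close together. Rps6ka2 fell by 0.70 on the log2 scale, or 1.63-fold (SE 0.129, adjusted p = 0.00436 from limma), and passed under all 19 alternatives. Rps6ka3 (RSK2) lay lower on every Rpt3-/- array and stood at -0.35 (adjusted p = 0.0821 from limma). Rps6ka1 (RSK1) was above background on 2 arrays and was not tested.

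**Figure D4:**
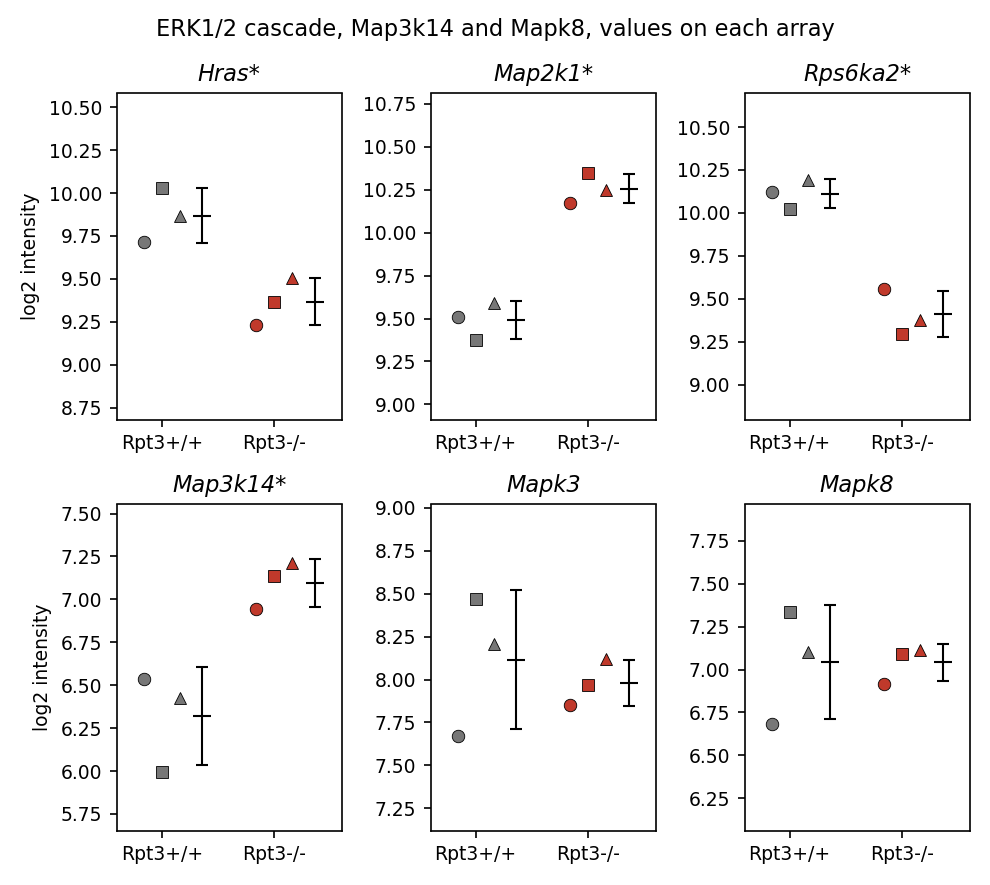
Log2 intensity (vertical axis) on each array for 4 genes of the ERK1/2 cascade, Map3k14 and Mapk8; marks, bars and asterisks are as in the plot of the p38 genes. Hras and Rps6ka2 lie lower and Map2k1 and Map3k14 higher on every Rpt3-/- array, while the groups overlap for Mapk3 and Mapk8.

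The MNK kinases, which ERK and p38 both activate and which phosphorylate a translation initiation factor, were not called. Mknk1 measured 7.35, 7.61 and 7.71 in Rpt3-/- mice and 7.42, 8.46 and 8.03 in Rpt3+/+ mice. Rpt3+/+ array 1 lay near the lowest Rpt3-/- value. Its log2 fold change was -0.42 (adjusted p = 0.255 from limma), and -0.68 (adjusted p = 0.00734 from limma) without that array. Without Rpt3+/+ array 2 it was -0.18 (adjusted p = 0.541 from limma). Mknk2 stood at 0.19 (adjusted p = 0.475 from limma).

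In the ERK5 cascade 0 of 3 tested genes were called by limma, against 19.3% of all genes. At an unadjusted p under 0.05 there was 1 gene. That gene was Map3k3, which encodes the MAP3K MEKK3. It measured 6.69, 6.94 and 7.11 in Rpt3-/- mice and 7.00, 8.27 and 7.75 in Rpt3+/+ mice. The controls spanned a wider range than the distance between the group means, with array 1 among the Rpt3-/- values. Map3k3 had a log2 fold change of -0.76 (SD 0.639 among the controls, adjusted p = 0.0801 from limma), which was -1.08 (adjusted p = 0.000448 from limma) without Rpt3+/+ array 1 and -0.47 (adjusted p = 0.13 from limma) without Rpt3+/+ array 2. Mapk7 encodes ERK5 itself and measured 8.23, 8.04 and 8.40 in Rpt3-/- mice against 7.66, 8.11 and 7.89. The groups overlapped, and the log2 fold change was 0.34 (95% interval -0.01 to 0.68, adjusted p = 0.168 from limma). Map2k5, the MAP2K of ERK5, stood at -0.20, and Map3k2 was not tested, since its probes were above background on 0 and 1 arrays.

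The atypical MAPK gene Mapk6, which encodes ERK3, measured 7.10, 7.22 and 7.31 in Rpt3-/- mice against 7.02, 7.60 and 7.41 in Rpt3+/+ mice. The Rpt3-/- values lay between those of the controls. Its log2 fold change was -0.13 (adjusted p = 0.635 from limma), whereas a second and dimmer probe gave 0.42, which did not pass either. Mapkapk5, a kinase that binds ERK3, stood at -0.13.

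In the JNK cascade 0 of 5 tested genes were called by limma, against 19.3% of all genes. At an unadjusted p under 0.05 there was 1 gene, and the median log2 fold change was -0.09. The MAPKs of this branch showed no difference beyond the spread between arrays. Mapk8, which encodes JNK1, measured 6.92, 7.09 and 7.12 in Rpt3-/- mice and 6.68, 7.34 and 7.10 in Rpt3+/+ mice. All Rpt3-/- values fell within the controls, and the log2 fold change of 0.00 had a 95% interval of -0.38 to 0.38. Mapk10, which encodes JNK3, measured 7.22, 7.13 and 7.30 against 7.17, 7.03 and 7.35. These ranges overlapped as well, with a log2 fold change of 0.03 (95% interval -0.26 to 0.33). Mapk9 (JNK2) had no named probe.

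One MAP2K of JNK came close to the threshold. Map2k4 encodes MKK4 and measured 7.49, 7.72 and 7.81 in Rpt3-/- mice and 7.84, 8.69 and 8.40 in Rpt3+/+ mice. The groups did not overlap, but Rpt3+/+ array 1 lay only just above the highest Rpt3-/- value. Map2k4 stood at -0.63 (95% interval -1.09 to -0.18, adjusted p = 0.0555 from limma) and -0.87 (adjusted p = 0.000826 from limma) without that array, and -0.45 (adjusted p = 0.0958 from limma) without Rpt3+/+ array 2. Map2k7 (MKK7), the other MAP2K of JNK, stood at -0.09, and the scaffold gene Mapk8ip1 (JIP1) at -0.19.

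Among the MAP3K, MAP4K and TAB genes grouped here as inputs of p38 and JNK, 1 of 10 tested genes was higher and 0 were lower. Over all tested genes these shares were 12.7% and 6.56%. At an unadjusted p under 0.05, 1 gene of the group was lower. The only called gene of the group was Map3k14. It encodes NIK, the MAP3K of noncanonical NF-κB signaling rather than of the p38 or JNK cascade. It measured 6.94, 7.13 and 7.21 in Rpt3-/- mice and 6.54, 6.00 and 6.42 in Rpt3+/+ mice. The groups did not overlap, but the probe was above background on only 1 of the 3 Rpt3+/+ arrays, so that the gene met the filter through the group in which it was higher and its control level is poorly measured. Map3k14 had a fitted log2 fold change of 0.78 (SE 0.163, adjusted p = 0.00847 from limma). The value depended on the treatment of the background, with 1.80 (adjusted p = 0.041 from limma) after plain subtraction, and was -0.08 (adjusted p = 0.756 from limma) with arrays centred on Actb.

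The remaining genes of this group were not called. Tab2, an adaptor of the MAP3K TAK1, was lower on every Rpt3-/- array and stood at -0.39 (adjusted p = 0.0644 from limma), and passed without Rpt3+/+ array 1 (adjusted p = 0.0179 from limma) but not without Rpt3+/+ array 2 (adjusted p = 0.139 from limma). Tab1, the activating partner of TAK1, stood at -0.22, and Map3k7, which encodes TAK1, at -0.08. The stress-activated MAP3Ks Map3k5 (ASK1), Map3k6 (ASK2) and Map3k4 (MEKK4) had log2 fold changes of 0.00, 0.16 and -0.15. Map3k11 (MLK3) stood at -0.28 and Map3k12 (DLK) at 0.14, the latter with Rpt3-/- values that were all above the controls. Map4k4 stood at 0.33 (adjusted p = 0.19 from limma). Map3k8 was above background on 0 arrays, and Map3k1 and Map4k3 had no named probe.

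Seen by role, each level of the relay held few tested genes and few calls. Over all tested genes 12.7% were higher and 6.56% were lower. Of 6 tested MAP2K genes 1 was higher (Map2k1) and 1 lower (Map2k6), of 7 MAPKs 2 were lower (Mapk14 and Mapk12), and of 7 MAPK-activated kinases 1 was lower (Rps6ka2). Of 10 MAP3Ks 1 was higher (Map3k14) and of 2 small GTPases 1 was lower (Hras). Of 4 scaffolds and adaptors 0 were called by limma, with 1 higher (Ksr1) and 1 lower (Tab2) at an unadjusted p under 0.05.

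The calls differed in how they held up to the processing. Map2k6 and Rps6ka2 passed under 19 of 19 alternatives and Mapk14 and Map2k1 under 18. Mapk14 did not pass with the methods' test after adjustment (adjusted p = 0.0837). Map3k14 passed under 16 of the 18 alternatives in which it was tested. Hras and Mapk12 passed under 10 of 19 each.

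**Figure D5:**
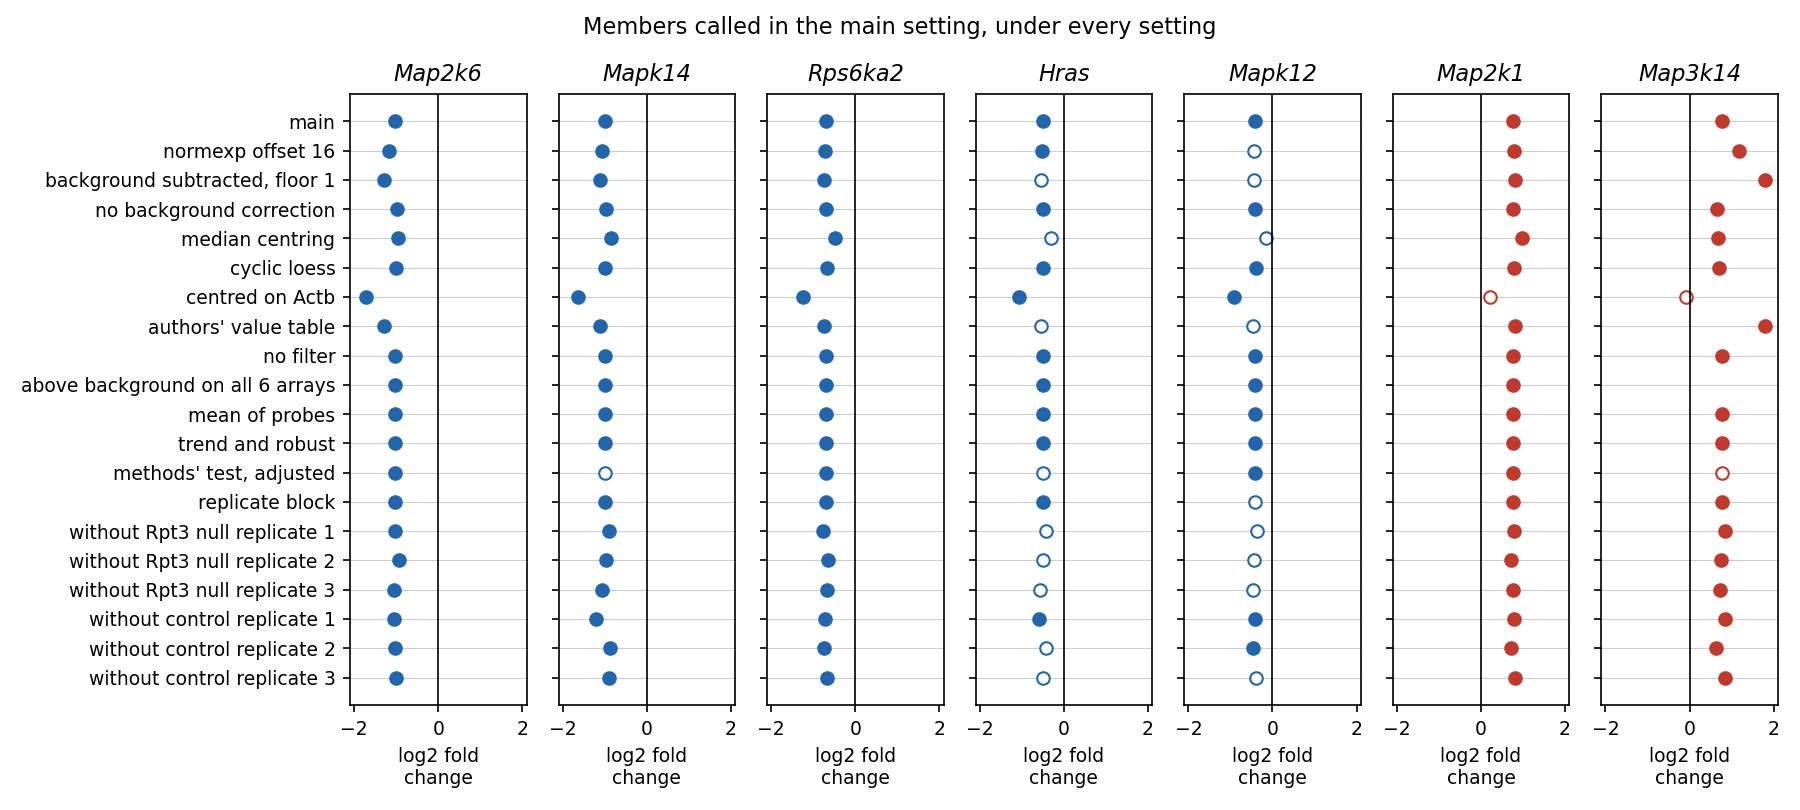
Log2 fold change (horizontal axis) of the 7 called members under the main setting and 19 alternatives (rows, with the control group being Rpt3+/+); filled points have an adjusted p under 0.05 and open points do not. Hras and Mapk12 have open points in 9 rows each, and centring on Actb, which moved all genes down, shifts every panel to the left.

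The rest of the pathway was read from 4 further lists, which share no gene with the members. Of 32 other kinases and scaffolds of the cascades 4 were higher and 2 lower (18.8%, against 19.3% of all genes), with a median log2 fold change of 0.02. With a limma p under 0.05 before adjustment, 4 were higher and 9 lower, against 19.2% and 12.9% of all genes. The groups did not overlap for 4 that were higher and 8 that were lower, against 36.8% of all genes in either direction. Ksr2, a scaffold related to Ksr1, measured 9.83, 10.27 and 9.66 in Rpt3-/- mice and 11.73, 10.72 and 11.24 in Rpt3+/+ mice. It fell by 1.31 on the log2 scale (SE 0.246, adjusted p = 0.00486 from limma), with no overlap and a wide spread among the controls. The other gene called lower, Rps6ka5 (MSK1), was not well above background in any Rpt3-/- mouse and met the filter through the controls alone. It was at least 1.36-fold lower. On each Rpt3-/- array this bound used the higher of the gene's own signal and the dimmest signal above background. The adjusted p of 0.0141 from limma belongs to the fitted log2 fold change of -0.55 and not to the bound. It rests on Rpt3-/- values near the background. The RAS-related GTPase genes Rras2 and Rras and the late endosomal adaptor gene Lamtor2 were higher, with log2 fold changes of 0.69, 0.61 and 0.66.

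Of 39 receptors, adaptors and RAS regulators 9 were higher and 1 was lower, 25.6% against the 19.3% of all genes. Gadd45a, a stress-induced gene whose protein binds the MAP3K MEKK4, measured 12.06, 12.03 and 11.96 in Rpt3-/- mice and 10.43, 10.17 and 10.18 in Rpt3+/+ mice. All Rpt3-/- values lay far above the controls, and Gadd45a rose by 1.75 on the log2 scale (SE 0.129, adjusted p = 2.9e-05 from limma). Its relative Gadd45b rose by 0.94, the adaptor gene Grb2 by 1.08 and the TNF receptor gene Tnfrsf1a by 0.85. The gene that was lower was Sos2, a RAS exchange factor, at -0.53.

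Of 20 MAPK phosphatases, which remove the activating phosphates, 3 were higher and 5 lower, a share of 40% against 19.3% of all genes. Dusp1, a dual-specificity phosphatase of p38 and JNK in the nucleus, measured 9.29, 9.28 and 9.50 in Rpt3-/- mice and 10.24, 10.44 and 10.37 in Rpt3+/+ mice. It fell by 0.99 on the log2 scale (SE 0.129, adjusted p = 0.000683 from limma), with no overlap. Dusp4 rose by 1.45 (adjusted p = 0.000857 from limma), and its values of 8.40, 7.61 and 8.06 in Rpt3-/- mice stood against 6.57, 6.39 and 6.75, with 2 of the 3 controls above background. Dusp7, which acts on ERK, fell by 0.90, and Dusp19 rose by 0.78. Dusp6, an ERK phosphatase in the cytoplasm, stood at 0.33 (adjusted p = 0.356 from limma).

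Of 25 transcription factors that respond to MAPK signaling 3 were higher and 1 lower, 16% against 19.3% of all genes. Those higher were Atf3, Trp53 and Ddit3, with log2 fold changes of 0.80, 0.62 and 0.52. Atf3 and Ddit3 are both induced by cell stress. The gene that was lower was Srf, a regulator of muscle actin genes, at -0.53. The immediate early genes Fos, Jun and Egr1 did not pass, with log2 fold changes of 0.37, 0.31 and 0.15. Egr2 stood at 0.61 (adjusted p = 0.0622 from limma), Junb at 0.60, Egr3 at -0.26 and Fosb at -0.34, and these did not pass either.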

How the data were processed

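Gene expression in muscle of 3 Rpt3-/- and 3 Rpt3+/+ mice was measured on CodeLink mouse arrays. The authors deposited scanner reports with the intensity and local background intensity of each spot and a quality flag. The reports name CodeLink Expression Analysis 5.0.0.31312 in their first line. A deposited value table of linear intensities, with the same median (89.0) in every column, was used as an alternative. Groups were taken from the sample labels, which give 3 mice for each.

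Of 34967 transcript probes 22151 were named, 21615 by a single symbol in the platform annotation and 536 through their RefSeq accession, and 681 with several symbols stayed unnamed. With limma 3.58.1 in R 4.3.3, background was corrected by normexp (offset 50), intensities were quantile normalized between arrays, and their log2 values entered lmFit and eBayes. Masked and contaminated spots and 1260 control spots were left out. The brightest probe stood for a gene. Steps were tested on simulated data. The members and lists were chosen with earlier results of these data known. Named with all array values were the called members, every tested MAPK and the member with the largest difference in each cascade. In each list up to 4 called genes were named, most of them with the log2 fold change only. Map2k3, Mapkapk2, Dusp6, Fos, Jun, Egr1, Egr2, Egr3, Junb, Fosb, Sos2 and Rps6ka5 were added after their values were seen. Other alternatives were background corrections, normalizations, filters, variance models, leaving out each array, a replicate block, and the unpaired test named in the study (the methods' test). Not every gene taken by the rule is reported here. The number of arrays limits the precision.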

Additional observations from a re-analysis of the deposited data

How the results depend on the processing

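The 7 called members kept their direction under all alternatives except Map3k14, whose log2 fold change was -0.0813 with arrays centred on Actb. Mknk2 (-0.53), Mapk10 (-0.74), Map3k6 (-0.57) and Map3k12 (-0.58), which had positive values before, turned negative there and passed. Under this centring the members called were 0 higher and 30 lower, with 0 higher and 6 lower in ERK1/2, 5 lower in p38 and 5 lower in JNK, and of all genes 328 were higher and 10333 lower. Median centring left 604 genes lower, 1 ERK1/2 gene lower and 1 JNK gene lower. Background subtraction and the authors' value table each left 3 members lower, 1 of them in ERK1/2. Without background correction 1 JNK gene was lower. With only genes above background on all 6 arrays 1 member was higher and 1 JNK gene lower. The methods' test gave 8 members lower, 4 of them in ERK1/2, and 1636 genes lower before adjustment, and 1 member higher, 3 lower, 1 lower in ERK1/2, 940 genes higher and 427 lower after it. Leaving out 1 array at a time gave 2 to 3 members higher and 3 to 12 lower, 1 to 2 higher and 1 to 3 lower in ERK1/2, 2 to 5 lower in p38, 0 to 1 lower in JNK, and 1089 to 2323 genes higher and 390 to 1456 lower. Deviations of same-numbered arrays from their group means had correlations of 0.126, -0.438 and 0.0976. Arrays of different numbers ranged from -0.485 to 0.471. With 3 arrays in a group these deviations depend on each other, so that they cannot show whether the numbers pair the samples. With a replicate block 2 members were higher and 6 lower, with 1 JNK gene lower, and Map2k4 and Map3k3 passed while Mapk12 did not. The cause of these changes was not tested. Signal over background limits Map3k14, which 1 control array measured above background, and 5 members that stayed dim have no test.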
